A study of Mus musculus with 9 samples.

Results

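The cytosolic ribosomal protein genes were taken by symbol: every gene whose symbol starts with Rpl or Rps followed by a digit, together with Rplp0, Rplp1, Rplp2 and Rpsa. Kinases of the Rps6k family, Rps19bp1 and rows marked as pseudogenes by "-ps" in the symbol were left out. This gave 88 of the 18138 genes in the deposited count table. Of these, 77 encode the canonical subunits (43 large-subunit proteins, 3 proteins of the P stalk and 31 small-subunit proteins). The other 11 are called near-copies here only because their symbol derives from that of a parent gene. Those compared with their parents matched them in 59.74% to 100% of aligned bases, so some are diverged. The symbol rule keeps 3 near-copies that GENCODE M21 types as pseudogenes: Rpl32l, Rpl6l and Rpl37rt. A filter on low counts kept 86 of the 88 genes for testing, and Rpl39l and Rps23rg1 did not pass it.

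Brain RNA of mice was sequenced in 9 libraries, 3 in each of 3 groups. The control group is labelled only as control (libraries 4, 5 and 6), so a sham operation is not stated. The MCAO group (libraries 4, 5 and 6) had MCAO surgery, the middle cerebral artery occlusion used as a model of ischaemic stroke. The hypidone group (libraries 2, 7 and 8) had the same surgery followed by hypidone hydrochloride, the compound the series title also calls YL-0919, at 5 mg/kg continuously for 7 days. Strain, sex, age, brain region, hemisphere, time after surgery and any vehicle in the other groups are not given in the labels. The labels also do not say that the libraries came from separate animals, so the p-values measure only the spread between these libraries.

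Ribosomal proteins coat the ribosomal RNAs of the large and small subunits and are made in matched amounts, because a subunit cannot be finished when one protein is missing. Their mRNAs are short, abundant in every cell type, and most begin with a run of pyrimidines, the 5′ terminal oligopyrimidine (TOP) motif, through which the mTORC1 kinase pathway controls their translation. In the brain they are expressed in neurons and glia alike.

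The stretches around the annotated starts were searched for such runs. RefSeq (GRCm38.p6) had promoter entries for 67 of the 88 genes, with 79 start sites, each entry running from 250 bases before the start to 50 bases after it. Below are the 30 bases from 10 before to 20 after the annotated start, with the start itself as the 11th base, for the genes past the test in a comparison that had an entry, and for Rplp0 and Rpl7l1 as genes described later. Capitals mark unbroken runs of at least 5 C or T. The regions are chr7:118116128-118116157 on the minus strand for Rps15a, chr17:33955646-33955675 (minus) for Rps18, chr3:90213629-90213658 (minus) for Rps27, chr7:116334171-116334200 (minus) for Rps13, chr10:20208429-20208458 (plus) for Rpl32l, chr5:115559457-115559486 (plus) for Rplp0 and chr17:46782637-46782666 (minus) for Rpl7l1.
Rps15a: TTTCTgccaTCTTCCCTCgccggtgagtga
Rps18: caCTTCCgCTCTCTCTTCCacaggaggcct
Rps27: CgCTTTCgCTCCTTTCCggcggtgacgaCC
Rps13: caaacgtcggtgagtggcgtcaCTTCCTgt
Rpl32l: aaatgaccagCTTCTTCCTTggtgctgcct
Rplp0: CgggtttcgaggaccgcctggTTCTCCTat
Rpl7l1: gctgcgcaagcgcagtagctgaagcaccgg
Rps15a, Rps18, Rps27 and Rpl32l have a pyrimidine run that includes the annotated start. In Rps13 the run in the window lies downstream of the start, and in Rplp0 one run ends at the window's first base, upstream of the start, and another begins downstream. Rpl7l1 has no run of that length in the window. A run of at least 8 C or T reaching into the stretch from 10 bases before the start to the entry's end was found at 52 of the 79 start sites of the ribosomal protein genes (65.8%) and at 24.2% of all 32851 start sites in the table. Some of these runs lie well past the start: in Rpl10, Rpl41 and Rps2 the longest began 40 bases after it. The share is therefore not a count of mRNAs that begin with a TOP motif. The letters CCGGAAG, a core that binds ETS-family factors, were searched for on both strands of the whole entry and stood in 34.2% of the ribosomal protein entries and 8.86% of all entries. These matches describe the sequence and are not shown to be sites in use.

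Library depth ran from 32075682 to 37325027 gene counts. Control 5 stood apart in markers of other regions: 3 choroid plexus markers summed to 182 CPM there and to 1.02 to 9.67 in the other libraries, 4 hippocampal neuron markers to 486 CPM against 104 to 207, and 6 oligodendrocyte markers to 7112 CPM against 2639 to 4496. CPM here are counts relative to a library size adjusted by edgeR's TMM scaling. For each comparison, the counts of genes above or below 0 are repeated without those of control 5, MCAO 5 and hypidone 2 that it compares. MCAO 5 and hypidone 2 stand at the ends of the range for most of the genes. On the FPKM scale (fragments scaled to transcript length and library size), 72 of the 88 genes had a mean over the 9 libraries above 100. Rpl41, which encodes the smallest ribosomal protein, was highest at 1291 FPKM, followed by Rplp1 of the P stalk at 974 FPKM and Rps15 of the small subunit at 849 FPKM. The lowest were near-copies: Rps23rg1 at 0.0507 FPKM, the muscle paralogue Rpl3l at 0.115 FPKM and the testis paralogue Rpl39l at 0.179 FPKM. Among canonical genes Rps15a was lowest at 35.4 FPKM, a level that rests on the transcript length of 5136 bases implied by its counts and FPKM.

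Together the 88 genes held 2.18%, 2.14% and 1.85% of all gene counts in control 4, 5 and 6. They held 2.19%, 2.94% and 2.49% in MCAO 4, 5 and 6. They held 1.69%, 2.02% and 2.18% in hypidone 2, 7 and 8. MCAO 5 and MCAO 6 lay above every other library, MCAO 4 lay only just above control 4, and hypidone 2 was lowest. The group means were 2.06% ± 0.181 in control, 2.54% ± 0.378 in MCAO and 1.96% ± 0.246 in hypidone (SD, n = 3 each). Counting error on such a share is small (Wilson 95% interval 2.94% to 2.95% for MCAO 5) and covers no difference between libraries. Because a share has a fixed total, it cannot tell a higher level of these mRNAs from a lower level of others.

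**Figure D1:**
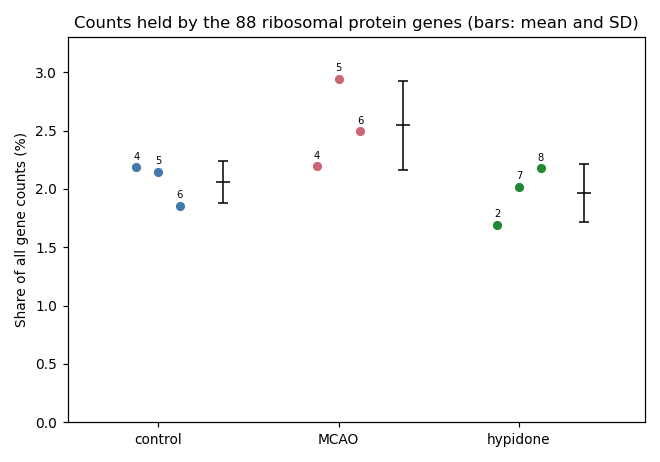
Share of all gene counts held by the 88 ribosomal protein genes (y axis, percent) in each of the 9 libraries by group, with the library number above each point and the group mean ± SD as a bar (n = 3). MCAO 5 at 2.94% and MCAO 6 at 2.49% stand above the rest, and MCAO 4 at 2.19% lies only just above control 4 at 2.18%.

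The first comparison, MCAO against control, asks what the surgery changed. Most ribosomal protein genes lay slightly above control in MCAO: 82 of the 86 tested genes had a log2 fold change above 0, while 50.8% of all 14756 tested genes did. Their median log2 fold change was 0.27 (1.20-fold), with quartiles of 0.17 and 0.36, and that of all tested genes was 0.01, with quartiles of −0.36 and 0.44. With edgeR's quasi-likelihood test and Benjamini-Hochberg adjustment over all tested genes at 0.05, 5 of the 86 were higher in MCAO and 0 were lower. Over all tested genes 10.6% were higher and 9.81% lower by that test, so the count of 5 is not above the background. At an unadjusted p under 0.05, 27 were higher, beside 19.2% of all tested genes, and 0 were lower, beside 17.6%. In 38 of the 86 every MCAO library lay above every control library, which held for 16.5% of all tested genes, and in 0 did the groups separate the other way (17%).

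Other highly expressed genes and other short genes serve as a background. Of the 2838 other tested genes with a mean of at least 83.7 CPM, the level of the lowest canonical gene, 6.77% were higher, 11% had MCAO libraries all above control, and the median log2 fold change was −0.08. Among the 2952 shortest tested genes, 206 to 1983 bases, the median log2 fold change was −0.03 without the ribosomal protein genes and 0.25 for the 79 of them that fall there.

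Rps14, a protein of the small-subunit platform, measured 354, 319 and 314 CPM in control and 500, 426 and 464 CPM in MCAO. The MCAO libraries all lay above control. Rps14 was highest in MCAO 4, the library in which most of these genes moved least, and its log2 fold change was 0.49 ± 0.13 (SE, adjusted p 0.0327 by edgeR, n = 3 per group).

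Rps15a, a small-subunit protein gene on chromosome 7 (118104372 to 118116188, GENCODE M21 on GRCm38), measured 164, 178 and 149 CPM in control and 203, 251 and 221 CPM in MCAO. The groups did not overlap, and the log2 fold change was 0.46 ± 0.12 (edgeR adjusted p 0.0325). Rpl32, a large-subunit protein gene on chromosome 6 (115805505 to 115808747), measured 234, 228 and 206 CPM in control and 265, 350 and 320 CPM in MCAO. MCAO 4 was nearest to control, and the log2 fold change was 0.49 ± 0.15 (edgeR adjusted p 0.0445).

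Rpl32l is a near-copy of Rpl32 on chromosome 10 (20208490 to 20208888, typed as a processed pseudogene by GENCODE M21). It had 1, 2 and 2 counts in control 4, 5 and 6 and 13, 14 and 12 in MCAO 4, 5 and 6. Pooled per group and scaled to depth, the MCAO level was 7.19 times that of control (95% interval 2.83 to 23.4, counting error only), while the same ratio for Rpl32 was 1.41. Its fitted log2 fold change was 2.77 ± 0.74 (edgeR adjusted p 0.0310). Rpl32l passed the filter on low counts only through the MCAO libraries, at 0.33 to 0.37 CPM beside 0 to 0.06 in the others. Its call and the separation of its groups are therefore not support, though the counts of called and separated genes include it. The copy's transcript is 96.04% identical to Rpl32 over the aligned part, and 19.43% of its 50-base words also occur in Rpl32. With all other genes counted, 35.43% of its words occur elsewhere. The 60 coding bases where Rpl32 and Rpl32l differ most hold 3 differing bases, shown in capitals. They are from GENCODE M21 transcripts on GRCm38 (chr6:115807047-115807106, minus strand, and chr10:20208641-20208700, plus strand).
Rpl32: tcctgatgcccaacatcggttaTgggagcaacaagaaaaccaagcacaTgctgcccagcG
Rpl32l: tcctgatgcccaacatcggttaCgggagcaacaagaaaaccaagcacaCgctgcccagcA
At 0.103% to 0.140% of the Rpl32 count in MCAO and 0 to 0.0292% elsewhere, the Rpl32l count is small enough that its level is uncertain, since how reads shared between copies were assigned is not given in the sources used here.

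**Figure D2:**
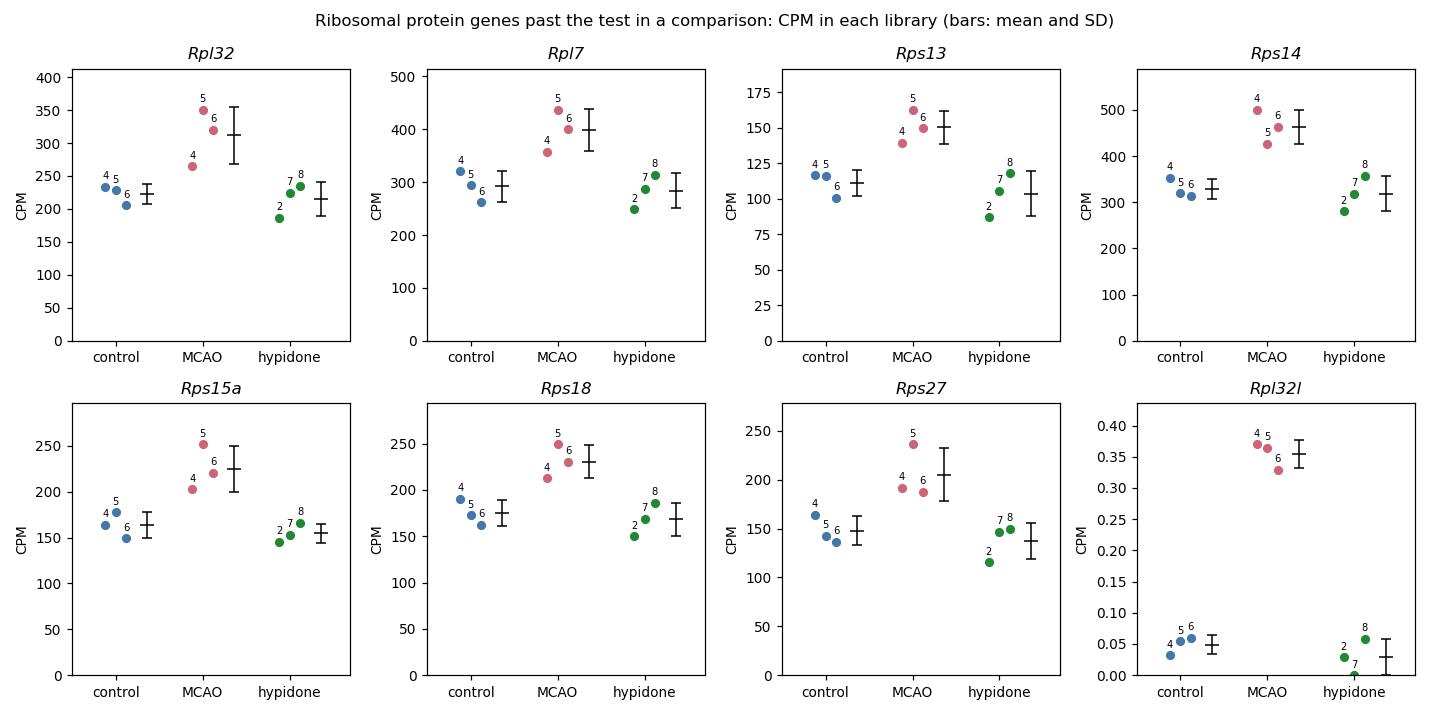
Level in CPM (y axis from 0, separate scale per gene) in each library for 8 ribosomal protein genes past the edgeR test in at least 1 comparison, with library numbers and group mean ± SD (n = 3). In all 8 panels the 3 MCAO points lie above the 3 control points and the 3 hypidone points. Rpl32l passed the filter on low counts only through the MCAO libraries.

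The 43 large-subunit genes all had log2 fold changes above 0, from 0.08 for Rpl37 to 0.49, with a median of 0.29. In 25 of the 43 the MCAO libraries were all above control, beside 16.5% of all tested genes. Rpl11 and Rpl5 bind the smallest ribosomal RNA and, when free, restrain the p53 inhibitor Mdm2. Rpl11 measured 262, 263 and 222 CPM in control and 303, 398 and 316 CPM in MCAO (log2 fold change 0.44 ± 0.16, edgeR adjusted p 0.0766). Rpl5 measured 402, 328 and 333 CPM in control and 382, 505 and 417 CPM in MCAO (log2 fold change 0.29 ± 0.16, adjusted p 0.203). Rpl11 thus separated the groups without passing the test, and Rpl5 overlapped through MCAO 4. Rpl7, at 321, 294 and 262 CPM in control and 357, 436 and 400 CPM in MCAO, had a log2 fold change of 0.44 ± 0.14 (adjusted p 0.0549).

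The 31 small-subunit genes also all had log2 fold changes above 0, from 0.004 for Rpsa to 0.49 for Rps14, with a median of 0.24. Groups separated in 10 of the 31, beside the same 16.5%. Whether the small subunit differs from the large one was not tested, and the mean log2 CPM of the large-subunit genes exceeded that of the small-subunit genes by 0.02 to 0.10 in all 9 libraries. Rps13, Rps18 and Rps27, the first at the interface with the large subunit, the second in the head and the last a zinc-finger protein, had log2 fold changes of 0.44, 0.40 and 0.47 (edgeR adjusted p 0.0507, 0.0526 and 0.0519). Rps6, the phosphorylation target of the mTORC1 pathway, measured 386, 389 and 307 CPM in control and 383, 463 and 421 CPM in MCAO, and the groups overlapped (log2 fold change 0.23 ± 0.15, adjusted p 0.312). Rpsa, also known as the laminin receptor, measured 636, 669 and 545 CPM in control and 553, 694 and 609 CPM in MCAO, with full overlap.

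Rps27a encodes ubiquitin fused to a small-subunit protein and did not follow the other genes. It measured 174, 154 and 147 CPM in control and 231, 165 and 147 CPM in MCAO, so that only MCAO 4 stood above control (log2 fold change 0.19 ± 0.17, edgeR adjusted p 0.443). Without MCAO 4 its log2 fold change was −0.03.

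The P stalk is the arm of the large subunit that recruits elongation factors, and its 3 genes did not move alike. Rplp0, the base of the stalk, measured 290, 324 and 247 CPM in control and 312, 529 and 407 CPM in MCAO. MCAO 5 was far above the rest while MCAO 4 lay within the control range, and the log2 fold change was 0.54 ± 0.20 (edgeR adjusted p 0.0865). Rplp1, which pairs with Rplp2 to form the stalk's arms, measured 475, 504 and 452 CPM in control and 458, 510 and 437 CPM in MCAO, with a log2 fold change of −0.03 ± 0.14 that turned positive under 4 of its alternatives. Rplp2 measured 158, 155 and 138 CPM in control and 151, 199 and 171 CPM in MCAO (log2 fold change 0.21 ± 0.15, adjusted p 0.340).

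Among the 11 near-copies, 9 were tested, and their log2 fold changes ran from −0.23 to 2.77. Rps27l, a p53-induced paralogue of Rps27, measured 13.3, 13.9 and 11.6 CPM in control and 14.0, 34.3 and 20.3 CPM in MCAO (log2 fold change 0.82 ± 0.31, edgeR adjusted p 0.0840). MCAO 4 was barely above the highest control library, and MCAO 5 stood 1.41 log2 units over the control mean. Rpl7l1, related to a yeast factor of large-subunit assembly, went the other way at 53.7, 49.9 and 50.5 CPM in control and 38.2, 50.7 and 42.2 CPM in MCAO (log2 fold change −0.23 ± 0.13, adjusted p 0.221). As a percentage of the Rpl7 count, Rpl7l1 stood at 16.8%, 17.0% and 19.3% in control, 10.7%, 11.6% and 10.5% in MCAO, and 18.2%, 18.5% and 16.2% in hypidone. Rpl7l1 is 59.74% identical to Rpl7 over the aligned part and shares no 50-base word with it, so their reads can be told apart.

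Other near-copies share more sequence with their parents. Rps27rt matched Rps27 in 100% of aligned bases, with 91.08% of its 50-base words in Rps27, and measured 6.77, 6.65 and 4.48 CPM in control and 11.1, 8.31 and 8.60 CPM in MCAO (log2 fold change 0.64 ± 0.24, edgeR adjusted p 0.0872). Rpl37rt matched Rpl37 in 99.71% of aligned bases, with 35.04% of its 50-base words in Rpl37, and stayed between 10.7% and 12.1% of the Rpl37 count in every library. Rpl6l matched Rpl6 in 98.74%, with 61.8% of its words in Rpl6, and stayed between 7.34% and 8.78% of the Rpl6 count. These 3 values for copies are uncertain to the extent that shared reads were assigned to either gene. Over the 87 genes with GENCODE transcripts, a median of 21.03% of 50-base words occurred in another gene's transcripts, and the median log2 fold change was 0.29 for the 16 tested genes under 10% and 0.28 for the 24 over 30%.

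The size of the shift depended on the MCAO library. The median log2 of CPM over the control mean was 0.15 in MCAO 4, 0.42 in MCAO 5 and 0.21 in MCAO 6 for the 86 genes, and −0.03, −0.03 and −0.04 for all tested genes. MCAO 5 was the highest MCAO library for 71 of the 86 genes, MCAO 4 for 12 and MCAO 6 for 3. Rps14, Rps27a, Rps27rt and Rpl37 were among those highest in MCAO 4, and Rplp0, Rpl39 and Rps27l were strongly highest in MCAO 5. Rpl39, a small protein lining the exit tunnel, measured 81.9, 70.3 and 72.8 CPM in control and 82.1, 132 and 89.8 CPM in MCAO. Without MCAO 5, 80 of 87 tested genes were above 0, 46 separated the groups (24.3% of all tested genes), 4 passed the test (11.9%) and the median log2 fold change was 0.20.

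**Figure D3:**
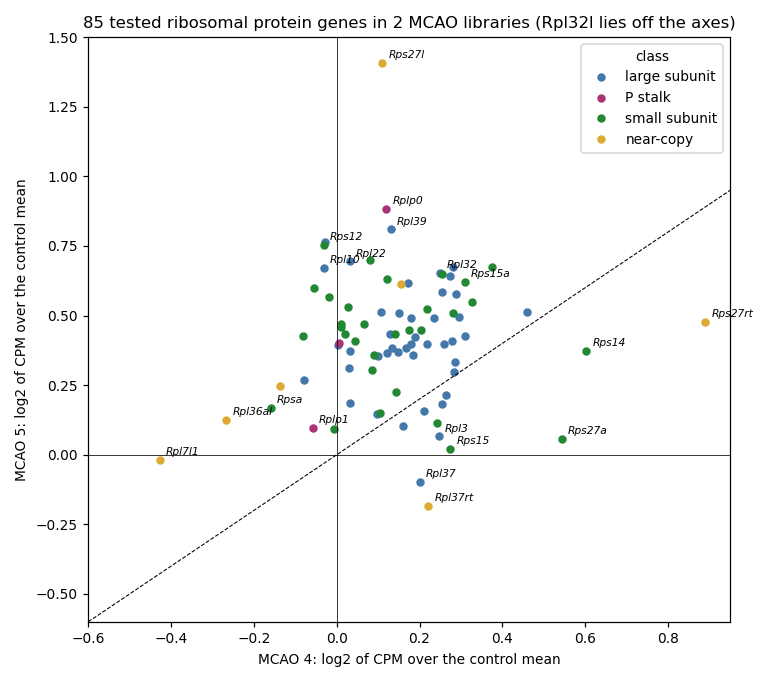
Each point is 1 of 85 tested ribosomal protein genes, coloured by class, with its log2 CPM over the control mean in MCAO 4 (x axis) and in MCAO 5 (y axis). The dashed line marks equal values, and most points lie above it, with Rps14, Rps27a and Rps27rt below it and Rps27l and Rplp0 far above.

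Markers of immune cells were also highest in MCAO 5. The summed CPM of 9 microglia markers was 475 to 513 in control, 607, 2368 and 1124 in MCAO 4, 5 and 6, and 521 to 627 in hypidone. The sum of 6 macrophage markers was 15.0 to 19.7 in control, 27.8, 1730 and 171 in MCAO 4, 5 and 6, and 32.1 to 113 in hypidone. The sum of 4 cell division markers was 0.80 to 5.30 in control, 0.71, 87.8 and 15.0 in MCAO, and 1.32 to 6.02 in hypidone. By edgeR 5 of the 9 microglia, 2 of the 6 macrophage and 0 of the 4 cell division markers were higher in MCAO, beside 10.6% of all tested genes. Neuron markers (7 genes) summed to 7952 to 11946 CPM in control, 10486, 5582 and 7568 in MCAO and 10608 to 11539 in hypidone, and none of the 7 passed the test. No marker of these lists was at 0 in all libraries of a group. Their part in the result was not tested, and in bulk tissue fewer cells of a type and less RNA per cell cannot be told apart.

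The calls changed with single libraries. Leaving out control 4, control 6 or MCAO 6 left 0 of the genes past the edgeR test as higher, beside 3.19% to 4.8% of all tested genes. Leaving out control 5 or any hypidone library left 2 or 3, beside 6.4% to 9.12%. Leaving out MCAO 4 gave 17 of 87, beside 15.7%, so the count rose together with the background. The median log2 fold change stayed between 0.20 and 0.32 with any 1 library left out. Without control 5, 84 of 87 tested genes were above 0 (52.3% of all tested genes), 44 separated the groups (23.5%) and the median was 0.28. DESeq2's Wald test called 22 higher and 0 lower (16.1% and 14.2% of all tested genes), and limma voom with quality weights called 29 higher and 1 lower (24.7% and 25.6%). Of the 88 genes, 9 in the authors' deposited table had a q-value under 0.05 with a higher level in MCAO and 0 with a lower one. The share of all genes past that cut was not counted, so the authors' counts have no background beside them.

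**Figure D4:**
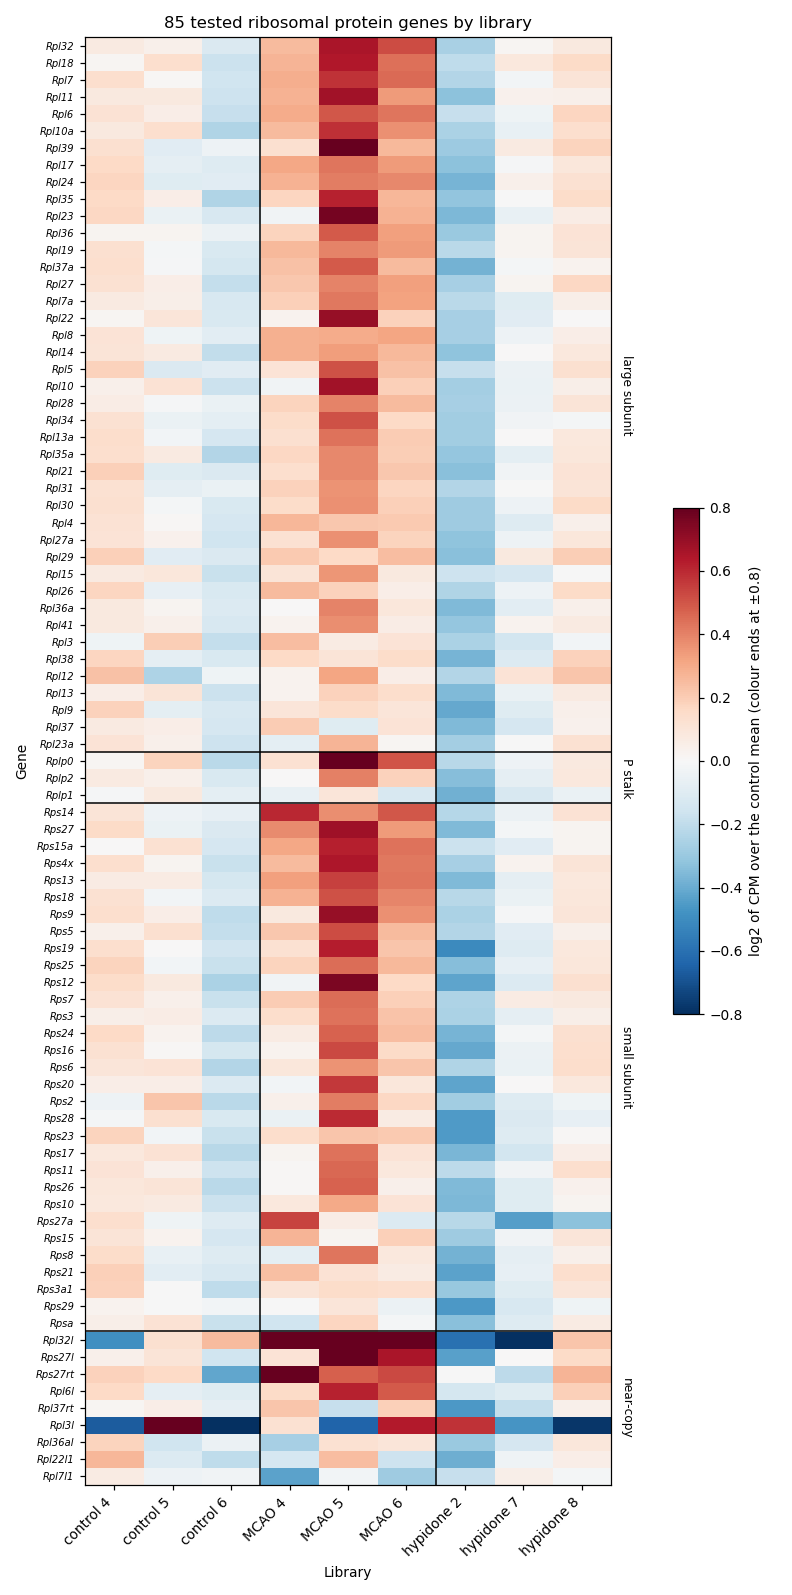
Log2 of CPM over the control mean (colour, ends at ±0.8) for 85 tested ribosomal protein genes in rows, by class and then by log2 fold change, in the 9 libraries in columns. The MCAO 5 column is the reddest, MCAO 4 is paler, hypidone 2 is blue for nearly every gene, and Rpl7l1, Rpl36al and Rps27a break the pattern.

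The second comparison, hypidone against MCAO, asks what the drug changed after surgery. It shares the MCAO libraries with the first, so its direction is not independent of it. Here 85 of the 86 tested genes had a log2 fold change below 0, beside 52.8% of all tested genes. The 1 gene above 0, beside 47.2% of all tested genes, was Rpl7l1 at 0.19 ± 0.13. The median log2 fold change was −0.34 (0.788-fold), and that of all tested genes was −0.04. With edgeR 9 were lower in hypidone and 0 higher, beside 8.28% lower and 8.23% higher of all tested genes, so the count is close to the background. At an unadjusted p under 0.05, 43 were lower (18.5% of all tested genes) and 0 higher (16.4%). In 49 of the 86 every hypidone library lay below every MCAO library, which held for 19% of all tested genes.

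Those described here are Rpl32 and Rpl7 of the large subunit, Rps14, Rps15a, Rps13, Rps18 and Rps27 of the small subunit and the near-copy Rpl32l. Rps14 measured 281, 318 and 357 CPM, below all MCAO libraries (log2 fold change −0.54 ± 0.13, edgeR adjusted p 0.0278). Rps15a measured 145, 153 and 166 CPM (−0.54 ± 0.12, adjusted p 0.0222). In both, hypidone 2 was lowest and hypidone 8 highest, and the hypidone range overlapped that of control.

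Rps13 measured 117, 116 and 101 CPM in control, 139, 163 and 150 CPM in MCAO and 87.0, 106 and 118 CPM in hypidone (log2 fold change against MCAO −0.54 ± 0.14, edgeR adjusted p 0.0298). Rps27 measured 164, 143 and 136 CPM in control, 192, 236 and 187 CPM in MCAO and 116, 147 and 150 CPM in hypidone (−0.58 ± 0.15, adjusted p 0.0314). Rps18 measured 190, 173 and 162 CPM in control, 213, 249 and 230 CPM in MCAO and 150, 169 and 186 CPM in hypidone (−0.46 ± 0.13, adjusted p 0.0397). For all 3 the hypidone and control libraries interleave while the MCAO libraries stand above both. Rpl32 at 186, 225 and 235 CPM and Rpl7 at 248, 287 and 314 CPM in hypidone had log2 fold changes of −0.53 ± 0.15 and −0.49 ± 0.14 (adjusted p 0.0377 and 0.0466). Rpl32l had 1, 0 and 2 counts in hypidone, and the MCAO level was 12.1 times the hypidone level (95% interval 3.86 to 61.4, counting error only; edgeR adjusted p 0.0214). Because Rpl32l entered the test only through the MCAO libraries, this call is not support either.

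By class, the median log2 fold change was −0.34 for the large subunit, −0.35 for the small subunit and −0.30 for the P stalk. Groups separated in 29 of the 43 large-subunit genes, 17 of the 31 small-subunit genes and 1 of the 3 stalk genes, beside 19% of all tested genes. Rplp0 measured 246, 279 and 303 CPM in hypidone, below all MCAO libraries (−0.59 ± 0.20, edgeR adjusted p 0.0716). Rps27a measured 136, 117 and 127 CPM, below MCAO and, in all 3 libraries, below control (−0.52 ± 0.17 against MCAO, adjusted p 0.0658). Rps27l measured 9.56, 12.98 and 14.38 CPM (−0.89 ± 0.31, adjusted p 0.0729), which overlapped MCAO 4. Rpl12, which sits at the base of the stalk, had the log2 fold change nearest to 0 among canonical genes, with 326, 233 and 271 CPM in control, 283, 344 and 287 CPM in MCAO and 236, 299 and 323 CPM in hypidone (−0.09 ± 0.17).

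This comparison, too, turned on single libraries. Leaving out MCAO 6 or any one hypidone library left 0 past the edgeR test as lower, beside 1.55% to 2.28% of all tested genes. Leaving out control 6 left 4, beside 5.43%, and leaving out MCAO 4 gave 23, beside 14.1%. The median log2 fold change stayed between −0.43 and −0.26. DESeq2 called 33 lower and 0 higher (14.7% and 12.5% of all tested genes), and limma voom called 39 lower and 1 higher (25.2% and 26.5%). Of the 88 genes, 22 in the authors' deposited table had a q-value under 0.05 with a lower level in hypidone and 0 with a higher one. Here, too, the share of all genes in that table was not counted. Without hypidone 2, 84 of 87 tested genes were below 0 (53.4% of all tested genes) and 52 separated the groups as lower (22.4%). Without MCAO 5, 85 of 87 were below 0 (50.7%) and 56 separated the groups as lower (27.9%). Red cell markers moved with this comparison: the 5 genes summed to 7.11, 28.0 and 4.31 CPM in MCAO 4, 5 and 6, to 71.3, 184 and 187 CPM in hypidone 2, 7 and 8 and to 41.9 to 72.8 CPM in control. By edgeR all 5 were higher in hypidone than in MCAO, beside 8.23% of all tested genes, and 5 of the 9 microglia markers were lower, beside 8.28%. Their part in the result was not tested.

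**Figure D5:**
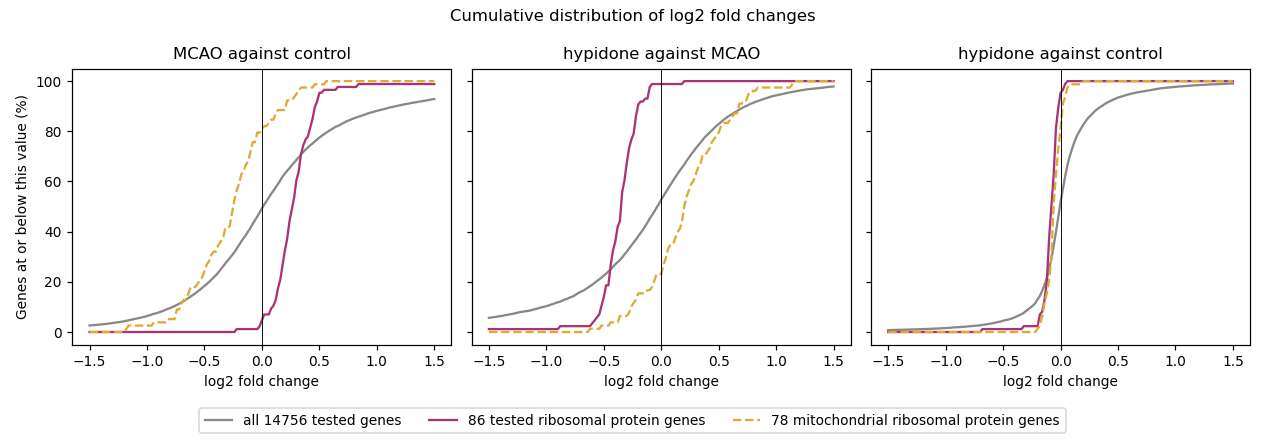
Percentage of genes (y axis) at or below each log2 fold change (x axis) in the 3 comparisons, for all 14756 tested genes, the 86 tested ribosomal protein genes and 78 mitochondrial ribosomal protein genes. The curve of the cytosolic genes is steep and shifted right in the first panel (median 0.27), shifted left in the second (median −0.34) and near 0 in the third (median −0.08).

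The third comparison set hypidone against control and shares libraries with both others. No ribosomal protein gene passed the edgeR test in either direction, and neither did any of the 14756 tested genes (0%). At an unadjusted p under 0.05, 0 of the 86 were higher (0.4% of all tested genes) and 0 lower (0.488%), and DESeq2 and limma voom called 0 of them. The median log2 fold change was −0.08, with 82 of 86 below 0 beside 51.9% of all tested genes and 4 above 0 beside 48.1%. Only Rps27a and Rps29 had all hypidone libraries below all control libraries (2 of 86, beside 2.71% of all tested genes). Rps29, named here after its values were seen, measured 243, 238 and 235 CPM in control and 173, 218 and 233 CPM in hypidone. The direction rested on hypidone 2: without it the median was 0.02. Then 56 of 87 tested genes lay above 0 (49% of all tested genes) and 31 below (51%). Without control 5 the median was −0.07, with 78 of 87 below 0 (51.1% of all tested genes).

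Hypidone 2 was the lowest of all 9 libraries for 78 of the 86 genes, and MCAO 5 the highest for 66. Within the hypidone group the median SD of log2 CPM was 0.20 for the ribosomal protein genes and 0.14 for all tested genes, while within MCAO it was 0.16 and 0.32. Their median spread was thus above that of all genes between the hypidone libraries and below it between the MCAO libraries. Over the 9 libraries, the Pearson correlation of each gene's log2 CPM with the mean of the other 85 had a median of 0.93, and 60 of 86 exceeded 0.9, while the median for other tested genes was 0.01. The 3 genes under 0.5 were Rpl3l (−0.14), Rpl7l1 (−0.11) and Rps27a (0.42). All these values share the same libraries and their scaling.

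Fau and Rack1 lie outside the symbol rule. Fau, which encodes a ubiquitin-like protein fused to a small-subunit protein, measured 179, 159 and 149 CPM in control, 189, 256 and 215 CPM in MCAO and 129, 173 and 180 CPM in hypidone. Its log2 fold changes were 0.44 ± 0.17 for MCAO against control and −0.45 ± 0.17 for hypidone against MCAO (edgeR adjusted p 0.0896 and 0.0888). Rack1, a signalling scaffold on the small subunit, had 0.36 ± 0.18 and −0.39 ± 0.18 (adjusted p 0.168 and 0.148). Both had the sign of the median ribosomal protein gene in each of these comparisons and neither passed the test.

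Other genes of the translation machinery were counted from lists by role. The counts are to be read beside the shares of all tested genes past the same test: 10.6% higher and 9.81% lower in MCAO, and 8.23% higher and 8.28% lower in hypidone against MCAO. Of 15 other mRNAs known to carry a TOP motif, 4 were higher and 1 lower in MCAO, with a median log2 fold change of 0.27, and 0 were higher and 5 lower in hypidone against MCAO, with a median of −0.37. The 4 higher in MCAO were Eif4b, a helper of the mRNA-unwinding helicase (0.67 ± 0.12, edgeR adjusted p 0.00794), Eif3e and Eif3f of the eIF3 complex (0.52 ± 0.12 and 0.44 ± 0.13, adjusted p 0.0167 and 0.0426) and Btf3 of the nascent-chain complex (0.44 ± 0.12, adjusted p 0.0325). The 1 lower was Eef1g, given below among the elongation factors. Of 40 initiation factors, some of them on that list, 6 were higher and 1 lower in MCAO (median 0.10), and 0 were higher and 6 lower in hypidone (median −0.15). Of 9 elongation factors, 0 were higher and 2 lower in MCAO: Eef1g (−0.40 ± 0.12, adjusted p 0.0449) and Eef1e1 (−0.66 ± 0.12, adjusted p 0.00870), a multisynthetase complex protein.

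The genes that build ribosomes went in both directions. Of 41 assembly factors, 3 were higher and 8 lower in MCAO (10.6% and 9.81% of all tested genes), with a median log2 fold change of −0.21. The helicase Ddx21 was higher (0.69 ± 0.15, edgeR adjusted p 0.0147), while Bop1, needed for large-subunit maturation (−0.66 ± 0.15, adjusted p 0.0184), the export factor Rrp12 (−0.53 ± 0.12, adjusted p 0.0176) and the small nucleolar RNP protein Nop10 (−0.59 ± 0.15, adjusted p 0.0257) were lower. Of 14 RNA polymerase I genes, 1 was higher, Taf1d of its promoter selectivity factor (1.51 ± 0.21, adjusted p 0.00435), and 2 were lower. Of 11 chaperones and importins for ribosomal proteins 1 was higher, the importin Ipo5 (0.51 ± 0.14, adjusted p 0.0351), and of 13 rescue and quality-control genes 1 was lower, the deubiquitinase Usp10 (−0.75 ± 0.13, adjusted p 0.00848). In the last 3 lists the counts of 1 or 2 genes are too small to set against these shares.

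Of 29 genes of the mTORC1 pathway, 6 were higher and 2 lower in MCAO (10.6% and 9.81% of all tested genes), and 1 was higher and 6 lower in hypidone against MCAO (8.23% and 8.28%). Those with the lowest p included 2 that restrain the pathway, the sestrin Sesn1 (1.34 ± 0.16, edgeR adjusted p 0.00272) and Ddit4 (1.08 ± 0.18, adjusted p 0.00727), together with Eef2k, the kinase that inhibits elongation (0.97 ± 0.16, adjusted p 0.00680), and the activating GTPase Rragc (0.70 ± 0.11, adjusted p 0.00645). Against MCAO their log2 fold changes in hypidone were −1.30, −1.45, −0.93 and −0.65 (adjusted p 0.00419, 0.00446, 0.00947 and 0.00935). The 78 mitochondrial ribosomal protein genes had a median log2 fold change of −0.25 in MCAO, with 0 higher and 20 lower (9.81% of all tested genes lower), and of 0.20 in hypidone against MCAO, with 13 higher (8.23%) and 0 lower.

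The start sequences were last set beside the size of the change. The median log2 fold change in MCAO was 0.26 for the 49 tested genes with a run of at least 8 in the searched stretch, which reaches up to 50 bases past the start, and 0.31 for the 16 without, and in hypidone against MCAO it was −0.34 and −0.39. For CCGGAAG the medians were 0.23 for the 25 genes with it and 0.29 for the 40 without in MCAO. These splits are descriptions over genes that share the same libraries, and 21 tested genes had no entry.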

How the data were processed

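Total RNA from 9 mouse brain samples was extracted with TRIzol and sequenced after VAHTS Universal V6 library preparation, per the labels' protocols. Raw counts and FPKM values, both per gene, were deposited. The genome build was mm10 and DESeq2 was used, per the submitters' processing notes. Not stated in these sources: aligner, counter, strand setting and the rule for reads that match several genes. Overlapping, antisense and near-identical genes are therefore uncertain. The authors' deposited tables of comparisons give a fold ratio and a q-value per gene. Another 9 per-sample columns in the files match no sample of the labels and were not used.

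Counts were tested with edgeR 4.0.16 in R 4.3.3 (filterByExpr, TMM scaling, quasi-likelihood F test, all 9 libraries in 1 fit with 3 group coefficients and 6 residual degrees of freedom, Benjamini-Hochberg over 14756 genes, threshold 0.05, two-sided). CPM used TMM-scaled library sizes. For the correlations 0.5 was added before logs, and the other logs of CPM used a smaller added value or none. Depth was 32075682 to 37325027 counts per library. The test was tried on simulated counts. Alternatives used DESeq2 1.42.0 and limma 3.58.1 (voom with quality weights, or log2 of FPKM plus 1), other scalings and filters, only the groups compared, and each library left out. Counts of genes above or below 0 and of groups that do not overlap were repeated without MCAO 5, without hypidone 2 and without control 5, chosen after the data were seen. Transcripts were compared with Biopython 1.88 on GENCODE M21. Positions are from GENCODE M21 (GRCm38), which matches the files' build, and start sites are from RefSeq (GRCm38.p6).

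The 88 genes and the lists were chosen with earlier results of these data known. Genes were named by rule: those past the test, the highest and lowest log2 fold change of each comparison, the 3 highest and lowest by mean FPKM, Rplp0, Rplp1, Rplp2, Rpsa, Rps6, Rps27a, Rpl5, Rpl11, near-copies and their parents, up to 4 genes per other list and comparison, and Fau and Rack1. Some genes that fall under the rule are counted but not reported by name here. Rps29 was added after its values were seen. Libraries with the same number in control and MCAO did not deviate together (r of 0.11, 0.12 and −0.03 over genes), so the main fit has no block. No 2 libraries agreed within counting noise. Markers of astrocytes, oligodendrocytes, endothelium, red cells, choroid plexus and hippocampal neurons were also summed, and by edgeR 1 of 6, 0 of 6, 2 of 4, 0 of 5, 0 of 3 and 0 of 4 were higher in MCAO and 0, 1, 0, 0, 1 and 2 lower. In hypidone against MCAO 0, 0, 0, 5, 0 and 0 were higher and 1, 0, 1, 0, 0 and 0 lower.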

Additional observations from a re-analysis of the deposited data

How the results depend on the processing

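Signs and medians of the ribosomal protein genes were steadier than the calls. The median log2 fold change kept its sign in MCAO against control (0.20 to 0.32) and in hypidone against MCAO (−0.43 to −0.26) under each alternative run. In hypidone against control it ran from −0.16 to 0.02. In MCAO against control the count of genes higher was 5, beside 10.6% of all tested genes. It was 8 with DESeq2 size factors (10.7%), 8 with a CPM of at least 1 in 3 libraries (11.1%) and 22 with DESeq2's Wald test (16.1%). With limma voom it was 29 (24.7%), and 1 was lower (25.6%): Rpl7l1, log2 fold change −0.29, limma voom adjusted p 0.0271. It was 0 with only the groups compared (2.38%) and 0 to 17 when 1 library was left out (3.19% to 15.7%). In hypidone against MCAO the count lower was 9, beside 8.28% of all tested genes. It was 33 with DESeq2's Wald test (14.7%). With limma voom it was 39 (25.2%), and 1 was higher (26.5%): Rpl7l1, 0.27, limma voom adjusted p 0.0245. It was 3 with only the groups compared (6.66%) and 0 to 23 when 1 library was left out (1.55% to 14.1%). A replicate block on the shared numbers 4, 5 and 6 of control and MCAO called 0 ribosomal protein genes and 0 of all genes, with a median of 0.26. Some alternatives use fewer libraries, and the cause of these changes was not tested.

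Signs turned for genes near 0. In MCAO against control, Rpl22l1 was 0.0455 with library totals, 0.0355 with FPKM and −0.13 to 0.15 with 1 library left out. Rpl36al was 0.0017, 0.0014 and 0.0018 with DESeq2 size factors, the CPM filter and DESeq2's test, 0.0491 with library totals, 0.0377 with limma voom, 0.032 with FPKM and −0.0802 to 0.11 with 1 library left out. Rpl3l was −0.24 to 1.04 with 1 library left out. Rplp1 was 0.0179 with library totals, 0.0119 with FPKM and −0.0754 to 0.022 with 1 library left out. Rps27a was −0.0356 with limma voom and −0.0264 to 0.33 with 1 library left out. Rpsa was −0.0075 with no filter, −0.0025 with only the groups compared, −0.004 with the replicate block and −0.081 to 0.0739 with 1 library left out. In hypidone against MCAO, Rpl12 was 0.0083 with limma voom and −0.19 to 0.0262 with 1 library left out, Rpl22l1 was 0.0587 and −0.19 to 0.0215, and Rpl3l was −0.78 to 0.11 with 1 library left out. In hypidone against control, Rpl12 was −0.063 to 0.18 with 1 library left out. Shares of library counts moved by less than 1 SD without the genes that have pseudogene rows and without the near-copies. A share without mitochondrially encoded genes was not run, because no symbol in the table starts with mt-.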
